A study of Mus musculus with 6 samples.

Results

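RNA of 9 leukocyte tetraspanins (Cd9, Cd37, Cd53, Cd63, Cd81, Cd82, Cd151, Tspan31 and Tspan32) was compared between CD8+ T cells cultured with the LSD1 inhibitor GSK2879552 (GSK) and cells cultured with vehicle (Veh). The genes were taken by symbol from the 16281 genes of the count table, by a rule that uses no measured value. CD8+ T cells were taken from the spleens of OT1 mice of the C57BL/6 strain, which carry the transgene Tg(TcraTcrb)1100Mjb and with it a single T-cell receptor for an ovalbumin peptide; the labels give no age. All cultures were activated for 48 h with plate-bound anti-CD3 at 2 μg/ml, anti-CD28 at 2 μg/ml and IL-2 at 20 ng/ml, and were then expanded with IL-2 for 3 days. GSK at 0.5 μM or vehicle was present throughout activation and expansion, with n = 3 in each group. The cells came from 3 separate mice, and the sources do not say whether 1 mouse supplied both a GSK and a Veh culture.

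Tetraspanins are small membrane proteins that cross the membrane repeatedly and expose a large extracellular loop. Through this loop and their transmembrane segments they bind integrins, immunoglobulin-superfamily proteins and each other, and so organise receptors into membrane microdomains. In T cells, CD9, CD81, CD82 and others act as costimulatory molecules when they are bound by antibody, CD37 and TSPAN32 restrain proliferation, and CD53 is found on nearly all leukocytes. CD63 lies mainly in late endosomes, lysosomes and secretory granules, and it serves with CD9 and CD81 as a marker of extracellular vesicles.

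The summed counts lay between 18288447 and 18918811 in the Veh samples and between 19149909 and 19846720 in the GSK samples. Levels are CPM (normalised read counts), in which a count is taken relative to the TMM-scaled total of its sample. Groups were compared with edgeR's quasi-likelihood test and Benjamini-Hochberg adjustment over the 11698 genes that passed a filter on low counts. All 9 tetraspanins passed that filter. A gene was called when its adjusted p was under 0.05 and its fold change over 1.5. Kdm1a, which encodes LSD1, averaged 92.8 ± 5.45 CPM in Veh against 87.1 ± 3.54 CPM in GSK (SD, n = 3) and did not pass (edgeR, adjusted p = 0.22); its RNA is no check of an inhibitor of the protein.

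Of the 9 leukocyte tetraspanins, 1 was called higher in GSK (Cd82) and 2 were called lower (Tspan32 and Cd81). Among all genes tested, 6.32% were called, 2.22% higher and 4.09% lower. Cd9 and Cd53 were also lower at the adjusted p alone, so that 5 of 9 passed, where 32.1% of all genes tested did. Cd37, Tspan31, Cd151 and Cd63 did not pass. The GSK and Veh samples did not overlap for these same 5 genes, as for 46.7% of all genes tested. The median log2 fold change was -0.21 over the 9 genes, with 1 positive and 8 negative values. Over all genes tested it was -0.0039, with 5770 positive and 5928 negative values. These are bulk cultures, in which fewer cells of a type and less RNA per cell cannot be told apart.

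**Figure D1:**
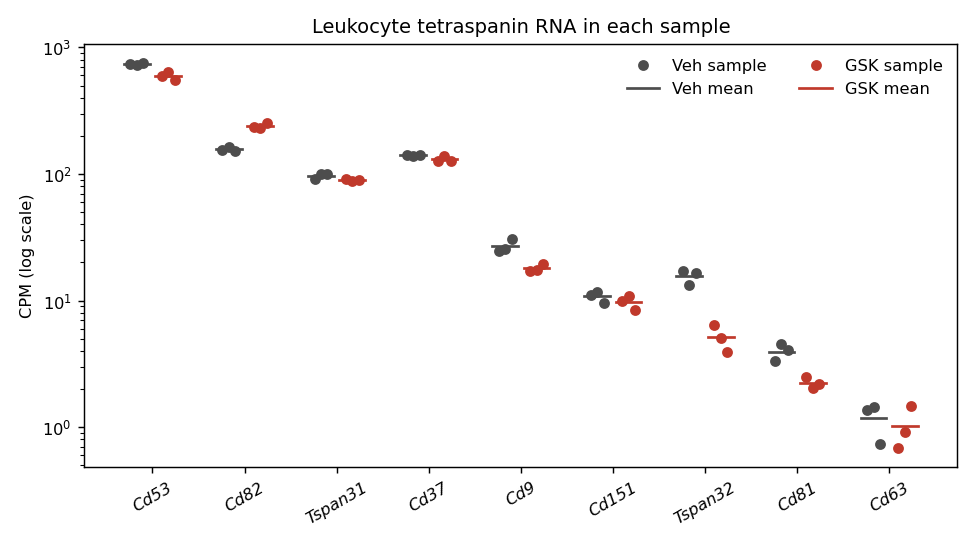
CPM of the 9 leukocyte tetraspanins on a log scale, with a point for each of 3 Veh and 3 GSK samples and a line at each group mean. Tspan32, Cd81, Cd9 and Cd53 lie lower and Cd82 higher in all GSK samples than in all Veh samples, and the points of Tspan31, Cd37, Cd151 and Cd63 overlap.

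Promoter sequences are shown for the 4 tetraspanins with the largest fold changes in either direction, so that the genes that moved can be compared base by base with one another. The windows run from 250 bases before to 50 bases after a transcription start (RefSeq, GRCm38.p6) and are written 5′ to 3′ on the strand of the gene. The capitals mark matches to the RUNX core (TGTGGT or TGCGGT), the GC box (GGGCGG) or the TATA box (TATAAA), searched on both strands. They are Tspan32 at chr7:143004796-143005095 (plus strand), Cd81 at chr7:143052500-143052799 (plus strand), Cd82 at chr2:93462901-93463200 (minus strand) and Cd9 at chr6:125494711-125495010 (minus strand). Cd82 has 4 starts in the table, and the one nearest the 5′ end of the annotated gene is shown.
Tspan32: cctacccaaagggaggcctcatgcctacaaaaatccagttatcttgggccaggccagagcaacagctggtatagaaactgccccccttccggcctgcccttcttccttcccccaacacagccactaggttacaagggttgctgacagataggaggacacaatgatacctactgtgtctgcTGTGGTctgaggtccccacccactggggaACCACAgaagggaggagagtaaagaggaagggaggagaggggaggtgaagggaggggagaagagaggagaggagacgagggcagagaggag
Cd81: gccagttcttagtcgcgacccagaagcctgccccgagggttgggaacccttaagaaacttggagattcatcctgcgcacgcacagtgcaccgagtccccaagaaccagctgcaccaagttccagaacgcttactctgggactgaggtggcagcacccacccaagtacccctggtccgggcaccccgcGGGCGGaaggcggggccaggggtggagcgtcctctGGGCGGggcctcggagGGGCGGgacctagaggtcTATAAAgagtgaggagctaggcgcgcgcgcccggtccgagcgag
Cd82: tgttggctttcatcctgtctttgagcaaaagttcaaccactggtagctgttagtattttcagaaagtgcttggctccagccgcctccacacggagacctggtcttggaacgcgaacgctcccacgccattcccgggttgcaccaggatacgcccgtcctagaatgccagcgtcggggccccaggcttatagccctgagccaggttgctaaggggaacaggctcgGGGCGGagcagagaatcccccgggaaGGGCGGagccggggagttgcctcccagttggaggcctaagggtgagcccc
Cd9: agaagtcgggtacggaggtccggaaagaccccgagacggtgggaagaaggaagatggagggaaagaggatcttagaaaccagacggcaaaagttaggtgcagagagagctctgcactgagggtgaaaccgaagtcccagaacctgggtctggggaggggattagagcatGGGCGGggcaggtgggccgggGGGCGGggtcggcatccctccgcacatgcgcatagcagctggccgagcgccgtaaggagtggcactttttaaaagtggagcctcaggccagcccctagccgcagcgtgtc

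The Tspan32 window differed from the other 3 in composition. It held 2 CpG dinucleotides, against 23 in Cd81, 16 in Cd82 and 18 in Cd9, and the median over 32851 mouse promoters was 7. Its GC content was 56.7%, against 65.7% in Cd81, 60.7% in Cd82 and 61.3% in Cd9. The RUNX core, the short motif read by the RUNX factors of T cells, occurred in Tspan32 and Cd53 among the 9 promoters and in 22.4% of all promoters. In Tspan32 it was found once on each strand, with its first base 70 and 41 bases before the start. The GC box, read by SP1-like factors, occurred in 5 of the 9 (Cd9, Cd37, Cd81, Cd82 and Cd151) and in 35.7% of all promoters. The TATA box letters stood only in Cd81 among the 9, shortly after the annotated start, and in 13.6% of all promoters. The ETS core (GGAAGT or GGAAGC) occurred in Cd37, Cd53 and Cd63 and in 43.6% of all promoters. The T-box core GGTGTGA (3.98% of all promoters) and the GFI1 core (AAATCAC or AAATCAG, 7.35%) occurred in none of the 9. A match describes the letters of the window only, and its use by a factor was not tested.

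Tspan32, also known as Tssc6 or Phemx, is a tetraspanin of blood cells whose loss leaves T cells hyperproliferative in mice. It was at 16.97, 13.4 and 16.6 CPM in the Veh samples and at 6.46, 5.06 and 3.91 CPM in the GSK samples. The groups were well separated, since the lowest Veh sample was above the highest GSK sample by more than the spread within either group. Tspan32 fell by 1.60 on the log2 scale (SE 0.17, 95% confidence interval -1.97 to -1.24), a level 3.04-fold lower in GSK (edgeR's quasi-likelihood test, adjusted p = 3.7e-05). These values rest on 249 to 316 counts in Veh and 75 to 123 in GSK. Tspan32 was the only one of the 9 whose fold change passed a test against 1.5-fold itself (edgeR, adjusted p = 0.00139).

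Cd81, a costimulatory tetraspanin of T cells, was called lower at a much smaller size. It was at 3.32, 4.51 and 4.05 CPM in Veh and at 2.47, 2.02 and 2.19 CPM in GSK. Each GSK sample lay below each Veh sample, with 61 to 84 counts in Veh and 40 to 47 in GSK. The log2 fold change was -0.83 (SE 0.21, 95% confidence interval -1.29 to -0.37), or 1.78-fold lower (edgeR's quasi-likelihood test, adjusted p = 0.010). Counting noise is a large share of the spread at this depth, and the interval runs from a change below 1.5-fold to one above 2-fold.

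Tspan32 and Cd81 are neighbours on chromosome 7, both on the plus strand, in the distal region known for its imprinted genes. On GRCm38, Tspan32 spans positions 143004907 to 143019486 and Cd81 spans positions 143052750 to 143067930, with 33.3 kb between them. The annotated gene between them, the long non-coding RNA R74862, lies on the minus strand, overlaps Cd81 by 937 bases and was not analysed here. Tssc4, which begins just past Cd81 on the plus strand, averaged 16.6 ± 1.07 CPM in Veh against 17.9 ± 0.501 CPM in GSK (SD, n = 3). Its log2 fold change of 0.11 did not pass (edgeR's quasi-likelihood test, adjusted p = 0.34). Of the 9 genes, 4 lie on chromosome 7 (Cd37, Cd151, Tspan32 and Cd81) and 2 on chromosome 10 (Cd63 and Tspan31), and the remaining 3 each on a chromosome of their own. Cd37 and Cd151, the other members on chromosome 7, did not pass.

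**Figure D2:**
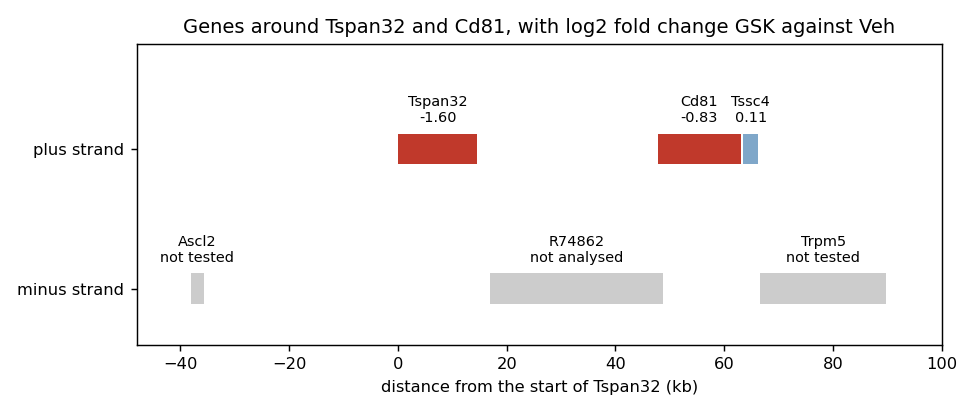
Genes around Tspan32 and Cd81 drawn to scale by distance from the start of Tspan32 in kilobases, on the plus and minus strands. The log2 fold changes written beside the genes were -1.60 for Tspan32, -0.83 for Cd81 and 0.11 for Tssc4, which starts next to Cd81.

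Cd9, a partner of integrins and of the proteins EWI-2 and EWI-F, is best known from platelets and the egg surface and is also present on T cells. Its level was 24.6, 25.4 and 30.6 CPM in Veh and 17.01, 17.6 and 19.3 CPM in GSK. All GSK samples were below all Veh samples, and Veh replicate 3 stood above the other Veh samples. Cd9 fell by 0.58 on the log2 scale (SE 0.096, 95% confidence interval -0.79 to -0.38; edgeR's quasi-likelihood test, adjusted p = 6.8e-04). The fold of 1.497 was just under the threshold, so Cd9 was not called. Without Veh replicate 1, Veh replicate 2 or GSK replicate 3 it was called, at log2 fold changes of -0.64, -0.62 and -0.64, and with a filter at a mean count of at least 50 it was called at -0.59.

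Cd53, the pan-leukocyte tetraspanin, was by far the most abundant of the 9. It was at 737, 721 and 750 CPM in Veh and at 596, 641 and 548 CPM in GSK. The Veh samples lay close together and above every GSK sample. Cd53 fell by 0.31 on the log2 scale (SE 0.050, 95% confidence interval -0.41 to -0.20; edgeR's quasi-likelihood test, adjusted p = 7.8e-04), well under the fold threshold.

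Cd82, also called KAI1 and first described as a suppressor of metastasis, moved the other way. The Veh samples were at 156, 164 and 152 CPM and the GSK samples at 234, 230 and 251 CPM. The samples of each group lay close together and the groups were far apart. Cd82 rose by 0.60 on the log2 scale (SE 0.048, 95% confidence interval 0.50 to 0.71), or 1.52-fold (edgeR's quasi-likelihood test, adjusted p = 3.6e-06). Its p-value was the 35th smallest of all genes tested, ahead of Tspan32 at rank 129, since its counts were high and its replicates close. The fold was near the threshold: without Veh replicate 3 or GSK replicate 3 the log2 fold change was 0.58 or 0.56 and Cd82 was not called, while the adjusted p stayed under 0.05.

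The remaining 4 did not pass. Cd37, a tetraspanin restricted to leukocytes and most abundant in B cells, was at 142, 137 and 142 CPM in Veh and 127, 139 and 127 CPM in GSK. GSK replicate 2 lay inside the Veh range, and the other GSK samples below it. The log2 fold change was -0.10 (95% confidence interval -0.21 to 0.00064; edgeR's quasi-likelihood test, adjusted p = 0.12), and without GSK replicate 2 it was -0.15 with an adjusted p of 0.022. Tspan31, a tetraspanin first found amplified in sarcoma together with its neighbour Cdk4, was at 91.2, 101 and 99.6 CPM in Veh and 92.0, 88.6 and 89.6 CPM in GSK. Its highest GSK sample lay above its lowest Veh sample, and its log2 fold change was -0.11 (95% confidence interval -0.22 to 0.00062; edgeR's quasi-likelihood test, adjusted p = 0.12). For both genes a decrease of 1.5-fold lay outside the interval.

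Cd151, the tetraspanin that binds laminin-binding integrins most tightly, was at 11.04, 11.6 and 9.62 CPM in Veh and 9.92, 10.9 and 8.45 CPM in GSK. The groups overlapped, and the log2 fold change was -0.14 (95% confidence interval -0.42 to 0.13; edgeR's quasi-likelihood test, adjusted p = 0.43). Cd63 was close to the limit of the filter, with 14 to 27 counts per Veh sample and 13 to 28 per GSK sample, or 1.36, 1.45 and 0.74 CPM in Veh and 0.68, 0.91 and 1.46 CPM in GSK. The groups overlapped fully, and the interval of its log2 fold change, from -1.03 to 0.61 around -0.21, allows a 2-fold decrease or a 1.5-fold increase, so that a change of that size was not detectable at this depth.

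Levels of different genes were compared as CPM per kilobase of annotated exons. On this scale the order of mean levels was the same in both groups: Cd53, Cd82, Tspan31, Cd37, Cd9, Cd151, Tspan32, Cd81 and Cd63. Cd53 stood at 422 CPM per kb in Veh and 342 in GSK, at the 99.4th and 99.1st percentile of the 11427 tested genes with a length. Cd82 followed at 52.2 and 79.3, Tspan31 at 44.3 and 41.1, and Cd37 at 39.9 and 37.2 CPM per kb in Veh and GSK. Cd9 was at 13.1 and 8.78 and Cd151 at 3.93 and 3.56 CPM per kb. At the lower end, Tspan32 was at 2.51 and 0.825, Cd81 at 1.37 and 0.774, and Cd63 at 0.321 and 0.276 CPM per kb. Neighbours in this order had ranges over samples that did not overlap, apart from Tspan32 and Cd81 in GSK, whose samples spanned 0.627 to 1.04 and 0.703 to 0.857 CPM per kb. With the longest transcript in place of all exons, Tspan32 and Cd81 changed places in GSK.

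The make-up of the summed RNA of these 9 genes shifted between its most abundant members. Other tetraspanins are not part of that sum. Of the summed CPM per kb of the 9 genes, Cd53 took 72.1% to 73.3% in the Veh samples and 64.3% to 68.3% in the GSK samples. Cd82 took 8.57% to 9.48% in Veh and 14.2% to 17.1% in GSK. The ratio of Cd53 to Cd82 per kilobase was 8.17, 7.61 and 8.52 in Veh and 4.39, 4.81 and 3.77 in GSK, with no overlap. The ranges of Tspan31 (7.21% to 7.99% in Veh and 7.5% to 8.35% in GSK) overlapped. The shares of Cd37 were 6.8% to 7.0% and 7.05% to 7.37%. The sum itself was 577, 574 and 590 CPM per kb in Veh and 512, 539 and 489 in GSK, lower in every GSK sample. These shares follow from the levels above and were not tested on their own.

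**Figure D3:**
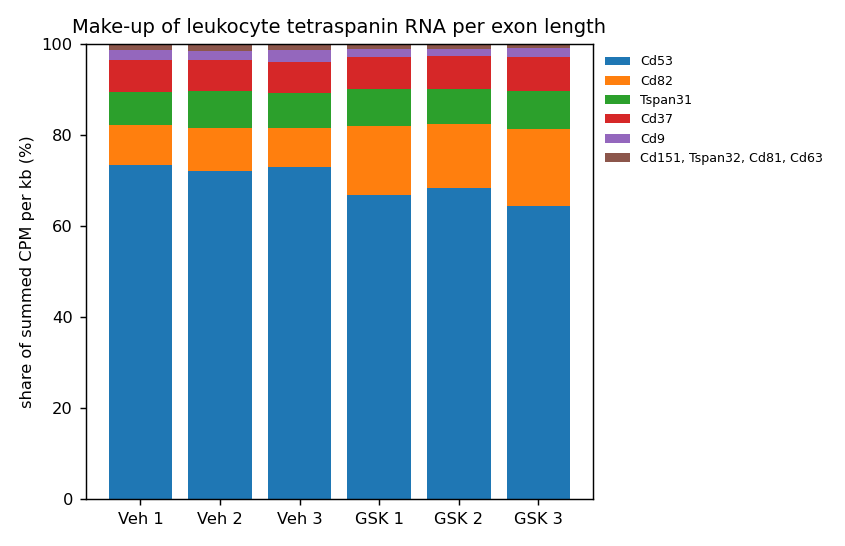
Share of each tetraspanin in the summed CPM per kilobase of the 9 genes, in percent, as a stacked bar for each of 3 Veh and 3 GSK samples. The Cd53 share lies between 72.1% and 73.3% in Veh and between 64.3% and 68.3% in GSK, while the Cd82 share is larger in all GSK samples.

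The annotation in the deposited table gives all 9 genes the term integral component of plasma membrane, which 3.49% of annotated tested genes carry. Extracellular exosome is given to Cd9, Cd63 and Cd81, integrin binding to Cd9, Cd81 and Cd151, and immunological synapse to Cd37, Cd53 and Cd81. Of the 3 exosome-annotated genes, Cd81 was called lower, Cd9 was lower at the adjusted p alone and Cd63 did not pass. Negative regulation of cell population proliferation is given to Cd9, Cd37 and Tspan32. Of these, Tspan32 was called lower, Cd9 was lower at the adjusted p alone and Cd37 did not pass. Among all genes tested, 4.09% were called lower, and 15.5% were lower without the fold threshold. The terms were not tested as sets.

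Some of the 9 share sequence with other genes, where the assignment of reads is uncertain. Stretches of 31 bases were taken from GENCODE M21 transcripts and searched for in both orientations, so that antisense overlaps count as shared. Of the stretches of Tspan31, 28.5% also occur in either orientation in transcripts of other genes, nearly all in Cdk4. Cdk4, a cyclin-dependent kinase gene, lies on the opposite strand and overlaps Tspan31 by 2 bases as annotated by RefSeq. Cdk4 averaged 282 ± 6.86 CPM in Veh against 287 ± 12.3 CPM in GSK (SD, n = 3) and did not pass (edgeR's quasi-likelihood test, adjusted p = 0.66). For Cd9 the share was 20.1%, most often with the overlapping antisense transcript Gm26728 and the pseudogene Cd9-ps, and for Cd63 it was 15.9%, mainly with the pseudogene Cd63-ps. It was 5.63% for Cd151 (Gm10575), 4.68% for Tspan32 (mainly Tspan32os) and 1.67% for Cd81 (mainly R74862). Cd37, Cd53 and Cd82 shared no such stretch. Further overlapping transcripts of Cd9 (Gm28809), Cd82 (Mir7001 and Gm10804) and Tspan31 (A730063M14Rik) were not analysed here.

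Of the other tetraspanins of the mouse, 22 were listed and 12 tested, and 2 were called lower, where 4.09% of all genes tested were. None of the 12 was called higher by edgeR or DESeq2, and none was higher at an unadjusted p under 0.05. Without the filter on low counts, edgeR called 1 of the listed genes higher, as given at the end. Tspan9 was at 17.1, 15.3 and 18.8 CPM in Veh and at 7.25, 9.41 and 10.1 CPM in GSK. All its GSK samples were below all Veh samples, and it fell by 0.94 on the log2 scale (SE 0.13; edgeR's quasi-likelihood test, adjusted p = 2.1e-04). Tspan2 was at 9.63, 7.40 and 10.4 CPM in Veh and at 5.72, 4.76 and 3.28 CPM in GSK. Its groups did not overlap either, and it fell by 0.99 on the log2 scale (SE 0.20, adjusted p = 0.0026 by the same edgeR test). Tspan5, which directs the trafficking of the protease ADAM10, passed only at the adjusted p, from 21.2 ± 1.18 to 17.9 ± 1.01 CPM (SD, n = 3; log2 fold change -0.24; edgeR, adjusted p = 0.044), and did not pass in 8 of 11 alternatives, among them 5 of the 6 that left out 1 sample (all but the one without Veh replicate 2). At the adjusted p alone, 0 of the 12 were higher and 3 lower, where 16.6% and 15.5% of all genes tested were. The median log2 fold change of the 12 was -0.17, with 2 positive and 10 negative values. Over all genes tested, 5770 values were positive and 5928 negative. Beside these, Tspan32 had the lowest log2 fold change of all 21 tested tetraspanins, and Cd82 the only positive one that passed.

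**Figure D4:**
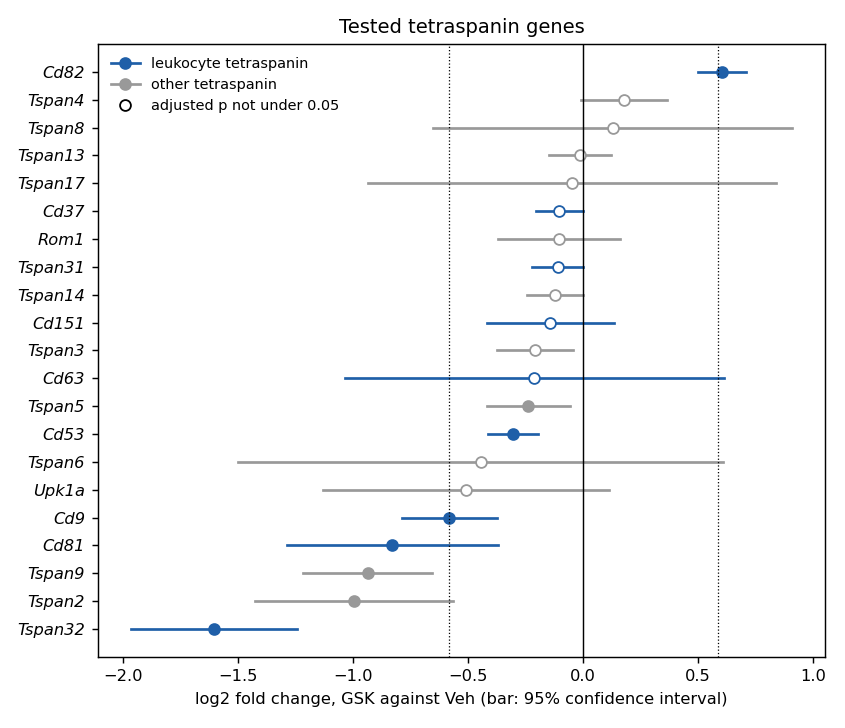
Log2 fold change, GSK against Veh, with its 95% confidence interval for each tested tetraspanin gene, the 9 leukocyte tetraspanins in blue and the other 12 in grey. Tspan32 lies farthest to the left at -1.60, followed by Tspan2, Tspan9 and Cd81, and Cd82 lies to the right at 0.60.

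Tetraspanins work through the proteins they hold, so their known partners were counted as well. Of 33 listed partners, 28 were tested, 2 were called higher and 2 lower, where 2.22% and 4.09% of all genes tested were. Without the fold threshold 7 of the 28 were higher and 5 lower, where 16.6% and 15.5% of all genes tested were. The median log2 fold change was 0.038.

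The immunoglobulin-superfamily proteins EWI-F and EWI-2, encoded by Ptgfrn and Igsf8, are the closest partners of CD9 and CD81. Ptgfrn was at 13.8, 18.1 and 17.9 CPM in Veh and 32.1, 31.02 and 34.4 CPM in GSK. Every GSK sample was well above every Veh sample, and Ptgfrn rose by 0.97 on the log2 scale (SE 0.099; edgeR's quasi-likelihood test, adjusted p = 2.6e-05). Igsf8, named after its values were seen, was at 29.5, 32.5 and 31.3 CPM in Veh and 42.5, 42.6 and 49.2 CPM in GSK. Its groups did not overlap, and it rose by 0.53 on the log2 scale (SE 0.075; edgeR, adjusted p = 2.5e-04), below the fold threshold. Ptgfrn and Igsf8 were higher in the cultures in which Cd9 and Cd81 were lower, Igsf8 and Cd9 at the adjusted p alone. Igsf3 of the same list, named after its values were seen, did not pass (log2 fold change -0.32; edgeR, adjusted p = 0.25). A link between these differences was not tested. Hbegf, a growth factor whose membrane form binds CD9, rose from 3.25 ± 0.538 to 7.35 ± 0.467 CPM (SD, n = 3; log2 fold change 1.18, SE 0.17; edgeR, adjusted p = 2.8e-04).

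Among the integrin genes of the list, Itga4 and Itgb3 were called lower. At the adjusted p alone, Itga6 and Itgb1 were also lower and Itgal was higher. Itga3, Itga5 and Itgb2, named after their values were seen, did not pass. Their log2 fold changes were 0.11, -0.38 and 0.044 (edgeR, adjusted p = 0.61, 0.20 and 0.38). Itga4, the alpha 4 chain of VLA-4 and a partner of CD81 and CD9, was at 58.3, 41.1 and 47.3 CPM in Veh and 17.5, 24.3 and 15.5 CPM in GSK. The groups did not overlap, and it fell by 1.35 on the log2 scale (SE 0.21; edgeR's quasi-likelihood test, adjusted p = 0.0057). Itga6, a laminin-binding chain that associates with CD151, fell by 0.50 on the log2 scale, from 51.9 ± 2.48 to 36.8 ± 0.684 CPM (SD, n = 3; edgeR, adjusted p = 9.0e-05). Itgb1 itself, named after its values were seen, fell by 0.37 on the log2 scale (edgeR, adjusted p = 3.5e-04). Itgb3 averaged 131 ± 10.7 CPM in Veh against 82.6 ± 12.8 CPM in GSK and was called lower (log2 fold change -0.66; edgeR, adjusted p = 0.0072), though without GSK replicate 3 its log2 fold change was -0.54 and it was not called. Itgal, the alpha chain of LFA-1, rose by 0.28 on the log2 scale, from 945 ± 1.84 to 1146 ± 25.6 CPM (edgeR, adjusted p = 5.0e-05). The chemokine receptor gene Cxcr4, the fifth partner that was lower, fell by 0.43 on the log2 scale (edgeR, adjusted p = 0.0097) and was also named after its values were seen.

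**Figure D5:**
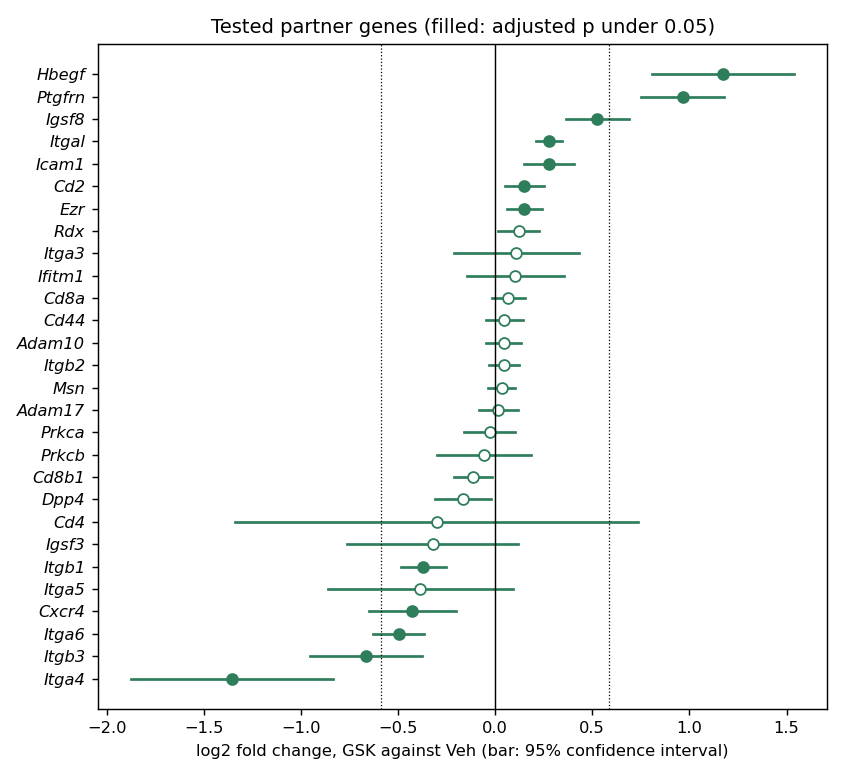
Log2 fold change, GSK against Veh, with its 95% confidence interval for the 28 tested genes of tetraspanin partners, filled where the adjusted p was under 0.05. Hbegf at 1.18 and Ptgfrn at 0.97 lie farthest to the right and Itga4 at -1.35 farthest to the left.

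Genes of late endosomes and vesicle release, the compartment of CD63, were counted next. Of 28 listed, 27 were tested and none was called in either direction by edgeR's quasi-likelihood test or by DESeq2, where edgeR called 6.32% of all genes tested. Without the fold threshold, edgeR found 3 higher and 3 lower, where 32.1% of all genes tested passed, and with an unadjusted p under 0.05 it found 7 and 4, where 43.0% of all genes tested passed. The groups did not overlap for 17 of the 27, as for 46.7% of all genes tested. The 3 genes with the smallest p were Stx11, Pdcd6ip and Rab27b. Stx11, a syntaxin of cytotoxic granule release, rose by 0.26 on the log2 scale (edgeR, adjusted p = 0.011), and without GSK replicate 1 its adjusted p was 0.060. Pdcd6ip, which encodes the vesicle sorting protein ALIX, had a log2 fold change of 0.13 (edgeR, adjusted p = 0.024) and did not pass at the adjusted p in 5 of 11 alternatives. Rab27b, a vesicle-docking GTPase, had a log2 fold change of -0.40 (edgeR, adjusted p = 0.033) and did not pass in 6 of 11. The median log2 fold change of the list was -0.017, and leaving out 1 sample gave between 0 and 5 genes higher (0 without GSK replicate 1, 5 without GSK replicate 2).

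The genes next to the 9 tetraspanins were counted to set the members beside their surroundings. Leaving out Tspan32 and Cd81, which are each other's neighbours, there were 40 neighbouring or overlapping genes. Of these, 24 were in the table and 15 were tested. None was called by edgeR's quasi-likelihood test or DESeq2, where edgeR called 6.32% of all genes tested. Cd9 and Cd82 had no tested neighbour, and Tspan32 had none besides Cd81. Tssc4 was the only other tested neighbour of Cd81, so the count says little about the surroundings of the called tetraspanins. Distances also varied, and Dram2 lies 184 kb from Cd53. At an unadjusted p under 0.05, 1 was higher and 3 were lower, or 26.7% of the 15, against 43.0% of all genes tested. The median log2 fold change was -0.055. At the adjusted p alone, Polr2l, a subunit of the RNA polymerases next to Cd151, was higher (log2 fold change 0.41; edgeR, adjusted p = 0.0017). Dram2, Marchf9 and Agap2 were lower, at log2 fold changes of -0.44, -0.55 and -0.15 (edgeR, adjusted p = 0.0018, 0.035 and 0.027). These 4 were named after their values were seen, and 32.1% of all genes tested passed at the adjusted p alone. Without Veh replicate 1 or GSK replicate 2, Marchf9 passed both thresholds, at log2 fold changes of -0.69 and -0.63, and it lost its adjusted p call without Veh replicate 2, Veh replicate 3, GSK replicate 1 or GSK replicate 3. Agap2 still passed at the adjusted p without GSK replicate 2, and did not pass when any other sample was left out.

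Because several tetraspanins are also abundant in other blood cells, markers of those cells were examined. Cd8a was at 533, 519 and 495 CPM in Veh and 539, 555 and 529 CPM in GSK. Cd8b1 was at 418, 395 and 404 CPM in Veh and 357, 398 and 370 CPM in GSK. Neither passed, and the labelled cell type was thus present in all samples, with Cd4 below 2 CPM in each. The summed CPM of 9 CD8 T-cell markers, Cd8a and Cd8b1 among them, was 4624 to 4726 in Veh and 4667 to 4857 in GSK. Within that sum, Cd3d, Cd3e, Cd3g and Cd28 were lower in GSK (log2 fold changes of -0.16, -0.23, -0.38 and -0.31) and Thy1, Lck and Cd2 were higher (0.23, 0.13 and 0.15), all at an adjusted p under 0.05 by edgeR's quasi-likelihood test. Cd3d did not pass without Veh replicate 1 (adjusted p = 0.063 by edgeR), nor Cd2 without Veh replicate 2, Veh replicate 3 or GSK replicate 2 (0.085, 0.11 and 0.073). The 8 B-cell markers, relevant to Cd37 and Cd81, summed to 6.31 to 8.27 CPM in Veh and 8.13 to 9.77 CPM in GSK, with Ms4a1 at or below 0.42 CPM and Pax5 at or below 0.30 CPM in every sample, Cd79b at 7.56 CPM at most, and Cd22 higher in GSK (log2 fold change 2.65; edgeR's quasi-likelihood test, adjusted p = 1.5e-04). The 5 platelet markers in the table, relevant to Cd9, summed to 1.69 to 2.42 CPM in Veh and 0.945 to 1.46 CPM in GSK. The platelet genes Pf4 and Gp9 had 1 count in 1 Veh sample and 0 elsewhere, and Itga2b was lower in GSK (log2 fold change -1.08; edgeR, adjusted p = 0.020), but not at the adjusted p without Veh replicate 2, Veh replicate 3 or GSK replicate 1. The 4 dendritic-cell markers in the table summed to 20.4 to 23.8 CPM in Veh and 6.05 to 12.9 CPM in GSK, nearly all from Itgax and H2-Ab1. Itgax and H2-Ab1 were lower in GSK (log2 fold changes of -1.37 and -1.19; edgeR, adjusted p = 0.0023 and 0.034). H2-Ab1 lost its adjusted p call in 5 of 11 alternatives. Zbtb46, at or below 0.945 CPM, did not pass (log2 fold change 0.033). Flt3 was at or below 0.263 CPM and was not tested. The NK-cell list summed to 204 to 224 CPM in Veh and 432 to 467 CPM in GSK. Most of that sum came from Eomes, a gene that CD8 T cells also express and that was called higher in GSK. Klre1 of the same list was higher at the adjusted p alone, from a mean of 8.04 CPM in Veh to 11.4 CPM in GSK. Its log2 fold change was 0.50 (edgeR's quasi-likelihood test, adjusted p = 0.0093), and it did not pass without GSK replicate 1. Klrb1c did not pass, at a log2 fold change of 0.54 (edgeR, adjusted p = 0.13), and Ncr1 was at 1 count at most. The 8 myeloid markers summed to 10.3 to 15.9 CPM in Veh and 10.4 to 13.4 CPM in GSK, the 5 erythroid markers to at most 0.272 and 0.313 CPM, the 3 mast-cell and basophil markers in the table to 5.39 to 6.54 and 3.49 to 5.72 CPM, and the 5 stromal markers, mostly Pecam1, to 75.8 to 84.2 and 61.0 to 75.3 CPM. The 3 CD4 T-cell markers, mostly Zbtb7b, summed to 39.8 to 51.5 and 35.7 to 43.2 CPM, while Cd40lg among them was higher in GSK, from 0.446 ± 0.315 to 1.29 ± 0.200 CPM (SD, n = 3; log2 fold change 1.52; edgeR, adjusted p = 0.018), but did not pass without Veh replicate 1, Veh replicate 3 or GSK replicate 1. The part of such cells in the tetraspanin differences was not tested.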

How the data were processed

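The authors trimmed the reads with Trimmomatic, mapped them to GRCm38 with HISAT2 (version 2.1.0) and counted reads per gene with HTSeq (version 0.11.2). The libraries were stranded and enriched for poly(A) RNA, and the annotation release and the strand setting of the counting are not given in the sources used here. The deposited values are whole counts per gene, not normalized. The GSK and Veh counts were compared by the robust quasi-likelihood test of edgeR (version 4.0.16, in R version 4.3.3) after TMM scaling and filterByExpr, with Benjamini-Hochberg adjustment across the 11698 genes that remained. Standard errors were derived from the test statistic, and intervals are at 95%. DESeq2 (version 1.42.0) was an alternative. On simulated counts for 11698 genes with 200 changed 2-fold, edgeR recovered 81.5% at the adjusted p alone, without the fold threshold. There were 16 false calls beside 163 right ones. The rule with both thresholds was not simulated.

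No pair of replicates agreed within sampling noise. The chi-square per degree of freedom was 9.382 for GSK replicates 2 and 3, and 4.066 to 4.821 for the other pairs. Replicates are separate samples of 3 mice. Lengths came from GENCODE M21 exons, which matched 15729 of the 16281 genes. Coordinates and promoters came from RefSeq tables of GRCm38.

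The tetraspanins and the gene lists were chosen with earlier results of these data known, although the rule for the tetraspanins uses symbols only. From the lists of other tetraspanins, partners and vesicle genes, genes were named where they were called or had 1 of the 3 smallest p-values. Others from these lists are marked as named after their values were seen. Cell-type markers, Tssc4 and the tetraspanins that did not pass the filter were named outside this rule. Other assays of the study were not analysed here, and 1 listed gene is not reported here by name. Counting depth was 18288447 to 19846720 per sample, so genes at about 1 CPM, such as Cd63, are imprecise.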

Additional observations from a re-analysis of the deposited data

How the results depend on the processing

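Cd9, Cd53, Cd81, Cd82 and Tspan32 kept their direction and an adjusted p under 0.05 with DESeq2, RLE size factors, no filter on low counts, a mean count of at least 50, the replicate block and each sample left out. Of 98 log2 fold changes of the 9 genes under these alternatives, 96 kept their direction and their side of the adjusted p of 0.05; at 1.5-fold, Cd9 and Cd82 changed sides as given above. Cd37 passed without GSK replicate 2, and Cd63 reversed to 0.0034 without GSK replicate 1 and ranged down to -0.56 without GSK replicate 3. With the fold change tested against 1.5, 0 of the 9 were higher and 1 was lower (Tspan32). Leaving out 1 sample gave 0 to 1 higher and 2 to 3 lower at both thresholds, and 1 higher and 4 to 5 lower at the adjusted p alone. Same-numbered samples deviated together with correlations of -0.0515, -0.0814 and 0.164, so the numbers were not taken as a pairing. With the replicate block, 1 of the 9 was called higher and 2 lower, as without it, and 5 passed at the adjusted p.

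Under the test against 1.5-fold, 0 other tetraspanins and 0 partners were lower, and 2 partners were higher, as without it. The late endosome list had 1 gene higher and 0 lower with the replicate block, and 0 lower with DESeq2. Levels per kilobase were higher with the longest transcript as length for every gene of which it was shorter than the exons together, such as Cd9 at 21.9 in Veh and 14.6 in GSK. Depth limits Cd63 and Cd81 most.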

Other observations

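Of the other tetraspanins, 10 did not pass the filter on low counts (Tspan1, Tspan7, Tspan10, Tspan11, Tspan12, Tspan15, Tspan18, Tspan33, Upk1b and Prph2), and none of them exceeded 11 counts in any sample. Without the filter, Prph2, a photoreceptor tetraspanin, was called higher, with 2, 2 and 2 counts in Veh and 9, 9 and 11 counts in GSK. It was named after its values were seen.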
